A study of Arabidopsis thaliana with 8 samples.

Results

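The plastid chromosome of Arabidopsis thaliana carries, besides its photosynthesis genes, the genes for the NDH complex, for a plastid RNA polymerase, for part of the plastid ribosome and for a few proteins of other roles. Members were the probe sets that stand for 1 gene of the plastid chromosome whose symbol does not begin with psa, psb, pet, rbc or atp, a rule that uses no measured value. It gave 36 probe sets for 36 genes, of 22810 probe sets on the array and of 13513 that stand for 1 gene. They comprise 10 NDH subunits, 4 RNA polymerase subunits, 8 proteins of the small and 7 of the large ribosomal subunit, and 7 other genes (matK, ycf3, ycf4, accD, cemA, ccsA and clpP). All 36 passed the filter on low signals, and 32 lay at or above the 40th percentile of the array on all 8 arrays. The exceptions were rpoB and ndhF, above it on 4 arrays each, rps14 on 6 and rps16 on 7. A further 8 probe sets stand for more than 1 entry of a plastid gene of this kind and are not members.

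Rosette leaf RNA was hybridised to 8 Affymetrix ATH1 arrays in 4 groups of 2 biological replicates, all in the Columbia background and grown in soil under long days. The groups were dor plants under drought, dor plants under control watering, wild type plants under drought and wild type plants under control watering. Drought plants were watered for 24 days and then had no irrigation for 10 days, and control plants were watered for all 34 days. The dor mutant is a single SALK T-DNA insertion line (Salk-050074), and the labels do not say how many plants were pooled. The labels are not uniform: the descriptions give the mutant another line name, and the source names of the wild type samples contain the word mutant. Groups follow the titles and the genotype field, and every comparison of genotypes rests on these. Values are MAS5 signals in linear units, and a difference is the log2 mean of a group minus that of the group it is set against, ± the limma standard error (SE), with 2 arrays a group, a number that limits the precision of every value.

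The NDH complex is a thylakoid oxidoreductase that takes electrons from ferredoxin and passes them to plastoquinone in cyclic electron flow around photosystem I. The plastid-encoded RNA polymerase transcribes the photosynthesis genes, and the plastid ribosome, built from plastid-encoded and nuclear-encoded proteins, translates them. Plastid genes are largely transcribed in polycistronic units, and their RNAs carry no stable poly(A) tail as nuclear messages do. The standard labelling protocol named in the labels primes from poly(A) tails, so a signal here is the labelled fraction of a plastid RNA and not its full amount.

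The arrays differed in ways the groups do not describe. DOR (AT2G31470), the F-box gene that gives the line its name, was not tested, since its signals of 2.3 to 21.4 lay under the 40th percentile of every array, and it gives no check of the genotype labels. RCA, a mesophyll marker, read 9383 and 26561 in dor drought, 31029 and 35723 in dor control, 31878 and 27883 in wild type drought and 36420 and 21538 in wild type control. No gene was listed for 8730 of the 22810 probe sets on the array, so a locus unmatched here may still have a probe set. Of 26 marker loci of leaf and other cell types 4 were matched to a probe set. The others were TRY of trichomes at 2027 and 2228 on both controls of replicate 1 and at 41.5 to 477 on the other 6 arrays, FMA of guard cells at 153 to 476.5 and PYK10 of roots at 8.3 to 192. The array of dor drought replicate 1 stood apart, being the lowest of the 8 arrays for 27 of the 36 members and for 20.7% of the 15523 tested probe sets. The part of these differences in the results was not tested. Medians of group differences over all members that use that array are given with and without it. Medians by role and of the plastid photosynthesis genes, counts by unadjusted p and most single-gene values are given with all arrays only. So are the differences of replicate 2 minus replicate 1 and their median.

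Under drought the summed signal of the members was lower in dor than in the other 3 groups, and no single member passed the test. Their signals summed to 0.543% and 0.717% of all signal on the dor drought arrays, against 1.14% on each dor control array. In wild type the sum was 1.04% and 1.08% under drought, against 1.05% and 1.18% under control watering. The 2 dor drought arrays were thus the lowest of the 8, and the wild type groups overlapped. In leaf RNA of this kind, fewer plastids or cells and less RNA in each cannot be told apart. The sum is given as a description, with no test.

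**Figure D1:**
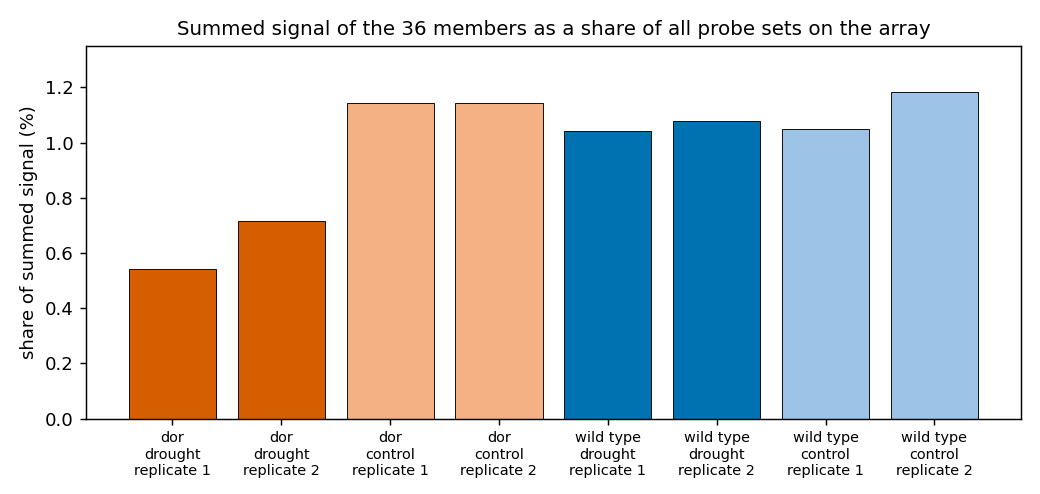
The summed signal of the 36 members is shown as bars, in percent of all signal on each of the 8 arrays, in the order of the groups. The member sums of the 2 dor drought arrays (0.543% and 0.717%) lie below the other 6 (1.04% to 1.18%).

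In the drought comparison within dor, 34 of the 36 members had a negative difference, as had 44.2% of the tested probe sets. The median was -1.01 over the members and 0.17 over all tested probe sets. Over the 8 probe sets of repeated plastid genes, which are not members, it was -0.15 with 5 negative. No member passed an adjusted p of 0.05 (limma, Benjamini-Hochberg over the 15523), where 0.567% of tested probe sets did. At an unadjusted p under 0.05 there were 7 members, or 19.4%, against 15.7% of the tested probe sets, so the members' share of single-gene evidence was near the background. The 7 were matK, ndhE, ndhA, ccsA, ndhJ, cemA and rpoA. The lowest adjusted p was 0.168, for matK.

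Both dor drought arrays lay below both dor control arrays for 18 members, where 22.9% of the tested probe sets did so, and no member had the reverse, where 26.5% of the tested probe sets did. Within replicate 1 the median difference was -1.12 with 33 members negative, where 44.7% of the tested probe sets were, and within replicate 2 it was -0.73 with 29 negative, where 48.4% were. Without dor drought replicate 2 the median was -1.59. Without dor drought replicate 1 it was -0.56. The remaining drought array lay below both dor control arrays for 18 members, against 28.7% of the tested probe sets, a count that cannot fall when an array is left out.

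In the drought comparison within wild type the median of the members was -0.06, against 0.16 over all tested probe sets, and 22 members had a negative difference, as had 44% of the tested probe sets. No member passed an adjusted p of 0.05 (0.00644% of the tested probe sets did), none had an unadjusted p under 0.05 (9.55% did), and the lowest adjusted p was 0.602. Both drought arrays lay below both control arrays for 5 members, namely ndhE, rpl32, rps18, ndhC and matK (background 18.8%), and above them for 1, rpl36 (background 22.9%). The median was 0.11 with 15 members negative within replicate 1 (43.3% of the tested probe sets), and -0.09 with 25 negative within replicate 2 (49.7%). It was 0.18 without drought replicate 1, -0.23 without drought replicate 2, -0.33 without control replicate 1 and 0.32 without control replicate 2, so its sign rested on single arrays.

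**Figure D2:**
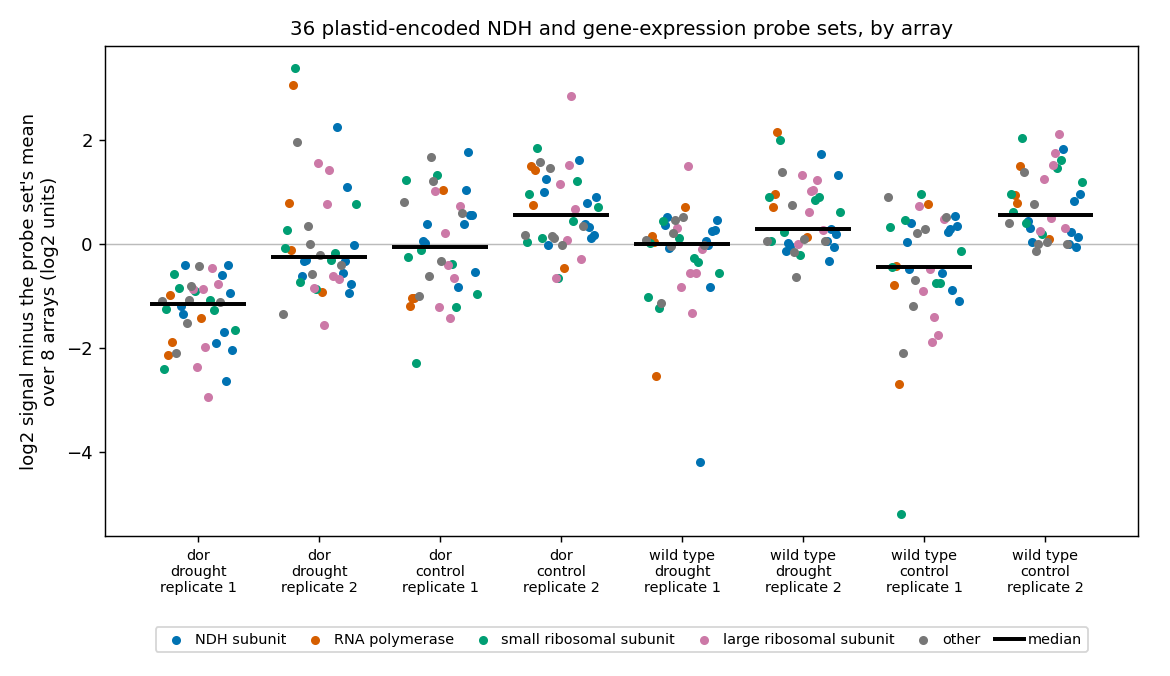
Each point is 1 of the 36 members on 1 array, as log2 signal minus that probe set's mean over the 8 arrays, coloured by role, with the median as a bar. On dor drought replicate 1 all members lie below their own mean, with a median of -1.15, and on dor drought replicate 2 the median is -0.25.

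**Figure D3:**
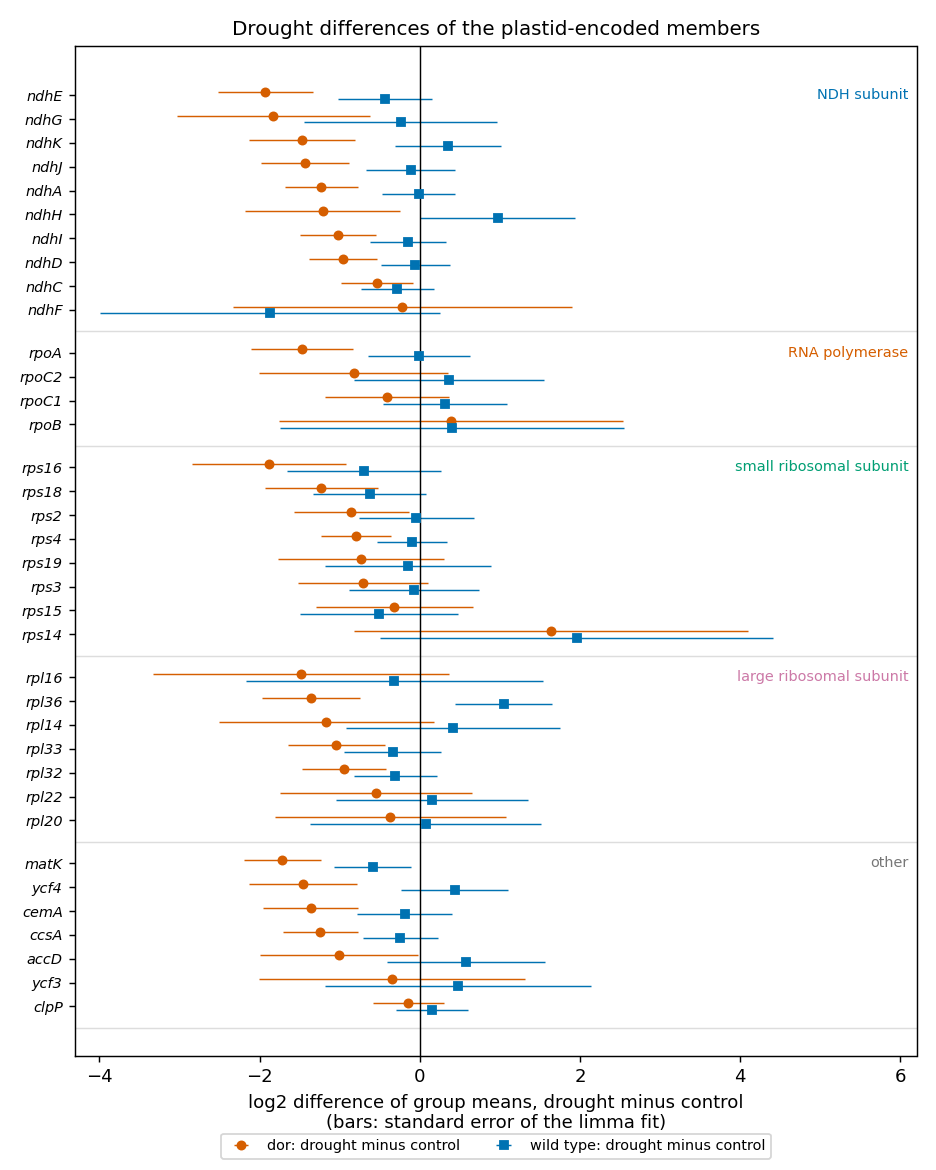
The log2 difference of drought minus control is shown for each member in dor and in wild type, grouped by role, with limma standard errors as bars. In dor 34 of 36 points lie left of 0, and in wild type 22 do.

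The 10 NDH subunit genes all had a negative drought difference in dor, with a median of -1.22 and a range of -1.93 (ndhE) to -0.22 (ndhF). In wild type the median was -0.13 with 8 of 10 negative. Both drought arrays lay below both controls for 7 of the 10 in dor, where 22.9% of the tested probe sets did, and for 2 (ndhE and ndhC) in wild type, a share near the 18.8% of the tested probe sets. No NDH gene passed the test in either genotype.

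The gene ndhI encodes a subunit with iron-sulphur clusters. It read 16138 and 11099 in dor drought, against 31623 and 23385 in dor control, and 25540.0 and 20508 in wild type drought, against 31175 and 20582 in wild type control. Both dor drought arrays were the lowest of the 8, and the wild type groups overlapped. The difference was -1.02 ± 0.47 (SE) in dor, with an adjusted p of 0.345, and -0.15 ± 0.47 in wild type.

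The gene ndhD encodes a membrane subunit. It read 8175 and 8420.3 in dor drought, against 16223 and 16138 in dor control. In wild type it read 13002 and 12987 under drought, against 14611 and 12472 under control watering. The dor drought arrays again lay below the other 6, and the difference was -0.96 ± 0.43 in dor and -0.06 ± 0.43 in wild type.

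The gene ndhC encodes another membrane subunit and lies next to ndhK and ndhJ on the chromosome. It read 7194 and 7764 in dor drought, against 12486 and 9376 in dor control, and 9077 and 9259 in wild type drought, against 12650.0 and 9781 in wild type control. Its drought arrays lay below the controls in both genotypes, with differences of -0.53 ± 0.45 in dor and -0.28 ± 0.45 in wild type. Its neighbours ndhK and ndhJ differed by -1.47 and -1.43 in dor and by 0.35 and -0.11 in wild type.

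The gene ndhE, a small membrane subunit, had the second lowest drought difference over both genotypes, at -1.18 ± 0.45 with an adjusted p of 0.132. It read 628 and 1629 in dor drought, against 4186 and 3532 in dor control. In wild type it read 1997 and 1619 under drought, against 2476 and 2396 under control watering. The drought arrays lay below the controls in each genotype, and dor drought replicate 2 lay level with wild type drought replicate 2.

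The other NDH genes differed in dor by -1.83 (ndhG), -1.23 (ndhA), -1.21 (ndhH) and -0.22 (ndhF). For ndhG the value rested on 1 array, with 178 and 2380.2 in dor drought against 3831 and 1401 in dor control, and without dor drought replicate 1 the difference was 0.04. For ndhH the wild type difference was 0.97 with all arrays and -0.06 without wild type control replicate 1. Within replicates 1 and 2 it was 1.57 and 0.37.

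The 4 subunits of the plastid-encoded RNA polymerase had a median difference of -0.62 in dor, with 3 of 4 negative, and of 0.34 in wild type, with 1 of 4 negative. The alpha subunit gene rpoA, which lies apart from the others, read 1545 and 2176 in dor drought, against 8551 and 3004 in dor control. In wild type it read 6812 and 4523 under drought, against 7084 and 4413 under control watering. The dor drought arrays were the lowest of the 8, with a difference of -1.47 ± 0.64 in dor (adjusted p 0.315) and -0.01 ± 0.64 in wild type.

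The genes of the other subunits, rpoB, rpoC1 and rpoC2, stand side by side and did not separate drought from control arrays in either genotype. The gene rpoC1 read 1057 and 1934 in dor drought, against 1015 and 3550.4 in dor control, and 2141 and 4104 in wild type drought, against 1562 and 3632 in wild type control. The gene rpoC2 read 108 and 816 in dor drought, against 207 and 1336 in dor control, and 522 and 773 in wild type drought, against 271 and 902 in wild type control. In both, replicate 2 was the higher array of every group.

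The beta subunit gene rpoB had the second highest drought difference over both genotypes, at 0.40 ± 1.44 with an adjusted p of 0.879. It read 28.1 and 862 in dor drought, against 50.6 and 279 in dor control, and 17.7 and 462 in wild type drought, against 15.9 and 294 in wild type control. All 4 arrays of replicate 1 lay under the 40th percentile, and the gap between replicates exceeded any gap between groups.

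Of the 8 small-subunit ribosomal protein genes 7 had a negative difference in dor, with a median of -0.76, and 7 in wild type, with a median of -0.13. The gene rps4 encodes a protein whose counterpart in Escherichia coli binds ribosomal RNA early in assembly. It read 5263 and 5741 in dor drought, against 8782 and 10343 in dor control, and 12823 and 11130.1 in wild type drought, against 13088 and 12542 in wild type control. The dor arrays lay below the wild type arrays in both conditions, and the difference under drought was -0.79 ± 0.44 in dor and -0.10 ± 0.44 in wild type.

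The gene rps18 read 1416 and 1452 in dor drought, against 6703 and 1682 in dor control, and 2892 and 2293 in wild type drought, against 5183 and 3044 in wild type control. Its drought arrays lay below the controls in both genotypes, by -1.23 ± 0.70 in dor and -0.63 ± 0.70 in wild type. In dor the within-replicate differences were -2.24 and -0.21, so most of the mean came from replicate 1.

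The gene rps19 read 1098 and 2362 in dor drought, against 1148 and 6214 in dor control, and 2087 and 4993 in wild type drought, against 1578 and 8129.6 in wild type control. The groups overlapped in both genotypes, and replicate 2 was the higher array of each.

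The gene rps16 had the lowest drought difference over both genotypes, at -1.29 ± 0.66 with an adjusted p of 0.238. It read 50.5 and 253 in dor drought, against 632 and 276 in dor control, and 133 and 506 in wild type drought, against 336 and 526 in wild type control. In dor the within-replicate differences were -3.64 and -0.13, so replicate 1 carried the value.

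At the other end, rps14 had the highest drought difference over both genotypes, at 1.80 ± 1.65 with an adjusted p of 0.499. It read 134 and 2085 in dor drought, against 40.4 and 715 in dor control, and 84.5 and 796 in wild type drought, against 5.4 and 825 in wild type control. The readings of 40.4 and 5.4 did not reach the 40th percentile of the array, and the size and rank of the difference rest on them. With both controls of replicate 1 left out it was -1.05, but that fit set drought arrays of both replicates against controls of replicate 2 alone. Within replicates 1 and 2 the difference over both genotypes was 2.85 and 0.75. The other small-subunit genes, rps2, rps3 and rps15, differed by -0.85, -0.71 and -0.32 in dor and by -0.04, -0.07 and -0.51 in wild type.

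All 7 large-subunit ribosomal protein genes had a negative difference in dor, with a median of -1.04, and 3 of 7 had one in wild type, with a median of 0.08. The gene rpl33 read 6286 and 6412 in dor drought, against 23479.7 and 7280.0 in dor control. In wild type it read 14284 and 11489.8 under drought, against 19157 and 13733 under control watering. The dor drought arrays were the lowest of the 8, and both dor arrays of replicate 2 lay below all wild type arrays.

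The gene rpl32 read 3328 and 3582 in dor drought, against 9462 and 4676 in dor control, and 5377 and 6931 in wild type drought, against 8017 and 7085 in wild type control. The differences were -0.95 ± 0.52 in dor and -0.30 ± 0.52 in wild type, and in each genotype the drought arrays lay below the controls.

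The gene rpl22 read 844 and 753 in dor drought, against 734 and 1853 in dor control, and 786 and 2709.6 in wild type drought, against 344 and 5017 in wild type control. Its groups overlapped, and its within-replicate differences in dor were 0.20 and -1.30.

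The gene rpl36 read 570.5 and 354 in dor drought, against 1204 and 1103 in dor control, and 2944 and 1595 in wild type drought, against 745 and 1479 in wild type control. Its drought arrays lay below the controls in dor and above them in wild type. Its difference was -1.36 ± 0.61 in dor and 1.05 ± 0.61 in wild type. The difference of these responses was -2.40, with an unadjusted p of 0.0227 and an adjusted p of 1. The remaining genes, rpl14, rpl16 and rpl20, differed by -1.17, -1.48 and -0.37 in dor and by 0.41, -0.32 and 0.08 in wild type, with standard errors of 1.34 to 1.85.

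The 7 genes of other roles all had a negative difference in dor, with a median of -1.24, and 3 of 7 had one in wild type, with a median of 0.15. The gene matK, which encodes the plastid intron maturase, had the lowest adjusted p of all members in dor. It read 4035 and 3394 in dor drought, against 15210.0 and 9722 in dor control, and 9077 and 9024 in wild type drought, against 16244 and 11420.2 in wild type control. All 4 drought arrays lay below all 4 control arrays, as in 3 members (with ndhC and ndhE) and in 9.41% of the tested probe sets. The difference was -1.72 ± 0.48 in dor, -0.59 ± 0.48 in wild type and -1.15 ± 0.36 over both genotypes, where the adjusted p was 0.0869.

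The gene ccsA, needed for attaching haem to c-type cytochromes, read 8524 and 13933 in dor drought, against 28044 and 23646 in dor control. In wild type it read 18412 and 19229 under drought, against 26748 and 18499.9 under control watering. The dor drought arrays were the lowest of the 8, with a difference of -1.24 ± 0.47 in dor and -0.24 ± 0.47 in wild type.

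The gene clpP, which encodes a catalytic subunit of the plastid Clp protease, stood near 0 in both genotypes. It read 9463 and 10900.2 in dor drought, against 10010.2 and 12541 in dor control, and 18196 and 13489 in wild type drought, against 15369.6 and 13029 in wild type control. The dor arrays lay below the wild type arrays in both conditions, and the drought difference was -0.14 ± 0.45 in dor and 0.15 ± 0.45 in wild type.

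The rest were ycf4 and ycf3, which act in photosystem I assembly, cemA of the envelope membrane and accD, a subunit of acetyl-CoA carboxylase. In dor ycf4 differed by -1.46, cemA by -1.36, accD by -1.01 and ycf3 by -0.35. In wild type the differences were 0.44, -0.19, 0.58 and 0.48 in the same order of genes. For ycf4 and cemA the within-replicate differences in dor were -2.77 and -0.15, and -2.03 and -0.69, so replicate 1 contributed most.

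Over both genotypes, in the additive model, 32 members had a negative drought difference, as had 43.8% of the tested probe sets, with a median of -0.48 against 0.17. No member passed an adjusted p of 0.05, where 5.81% of the tested probe sets did, and 2 had an unadjusted p under 0.05 (matK and ndhE), where 27.5% did. Within replicate 1 there were 27 negative members, and within replicate 2 there were 30, where 43.8% and 48.6% of the tested probe sets were negative. Leaving out dor drought replicate 1 gave a median of -0.17, leaving out dor control replicate 2 gave -0.25, and leaving out wild type control replicate 1 gave -0.75.

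Between the genotypes under drought, 33 members were lower in dor than in wild type by the sign of the difference, as were 50.1% of the tested probe sets. The median was -0.84 against -0.0009 over all tested probe sets. No member and no tested probe set passed an adjusted p of 0.05 (0% called), and at an unadjusted p under 0.05 there were 5 members, or 13.9%, against 3.17% of the tested probe sets. These were rpl36, matK, rps4, rpoA and ndhA. Both dor drought arrays lay below both wild type drought arrays for 18 members (background 15.1%), and above them for none (15.1%).

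Within replicates the genotype gap under drought had a median of -1.20 with 32 members lower within replicate 1 (49.8% of the tested probe sets), and of -0.44 with 23 lower within replicate 2 (50.9%). Without dor drought replicate 2 the median was -1.34. Without dor drought replicate 1 it was -0.48. The remaining dor drought array lay below both wild type drought arrays for 19 members, against 25.3% of the tested probe sets, and this count too could not fall.

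For 14 members both dor drought arrays lay below both dor control arrays and both wild type drought arrays, where 9.21% of the tested probe sets did. They were matK, rps4, ndhJ, ndhK, ndhC, rpl33, rps18, rpoA, rpl36, rpl32, ccsA, ndhD, ndhI and ndhA. With dor drought replicate 2 as the only dor drought array the count was 14, against 14.2% of the tested probe sets. Such a count cannot fall when an array is left out, so it does not show that the pattern is independent of replicate 1.

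Under control watering the median difference of dor minus wild type was 0.11, with 16 members lower in dor, as were 51.4% of the tested probe sets. No member and no tested probe set passed an adjusted p of 0.05 (0% called), and no member had an unadjusted p under 0.05 (0.457% did). Both dor control arrays lay below both wild type control arrays for 2 members, clpP and rps4 (background 7.47%), and above them for 3, ycf4, ndhD and ndhE (7.57%). The median was 0.26 with 11 members lower within replicate 1 (48.2% of the tested probe sets), and -0.06 with 22 lower within replicate 2 (52.2%). It was 0.43 and -0.20 without dor control replicate 1 or 2, and -0.30 and 0.63 without wild type control replicate 1 or 2.

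The difference of the drought responses, dor minus wild type, was negative for 34 members, as for 50.5% of the tested probe sets, with a median of -0.89. It was also negative for 31 of the 33 photosynthesis probe sets of the plastid chromosome, with a median of -0.69. No member and no tested probe set passed an adjusted p of 0.05 (0% called), and 1 member, rpl36, had an unadjusted p under 0.05 (1.19% of the tested probe sets did). The median was -1.45 with 35 members negative within replicate 1 (51.6% of the tested probe sets), and -0.38 with 27 negative within replicate 2 (50.3%). It was -0.59 without dor drought replicate 1, -1.46 with the other dor drought array left out, and -1.49 with wild type control replicate 2 left out.

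The members also split by replicate number. For 12 of the 36 all 4 arrays of replicate 2 lay above all 4 of replicate 1, or 33.3% of members against 11.6% of the tested probe sets, and for none did they lie below (1.95%). The 12 were rps2, rpoC2, rpoB, rps14, ycf3, accD, rpl20, rpl14, rpl16, rps19, ndhF and rps15. The difference of replicate 2 minus replicate 1 ranged from -0.77 (rps18) to 4.65 (rps14), with a median of 0.78, and it was at least 2 for 7 members.

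Neighbouring genes were alike in some stretches and not in others. The neighbours rpl33, rps18 and rpl20 had differences of replicate 2 minus replicate 1 of -0.61, -0.77 and 2.66. The genes rps2, rpoC2, rpoC1 and rpoB, which stand in a row, were all higher on replicate 2, by 0.96 to 4.08. Only gene order was read, not strand or transcription unit. The run rpl14, rpl16, rps3, rpl22 and rps19 was higher by 1.23 to 3.55. The split also held in 13 of the 33 photosynthesis probe sets of the plastid chromosome, or 39.4%. For 2 of them (6.06%) all arrays of replicate 2 lay below all of replicate 1.

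**Figure D4:**
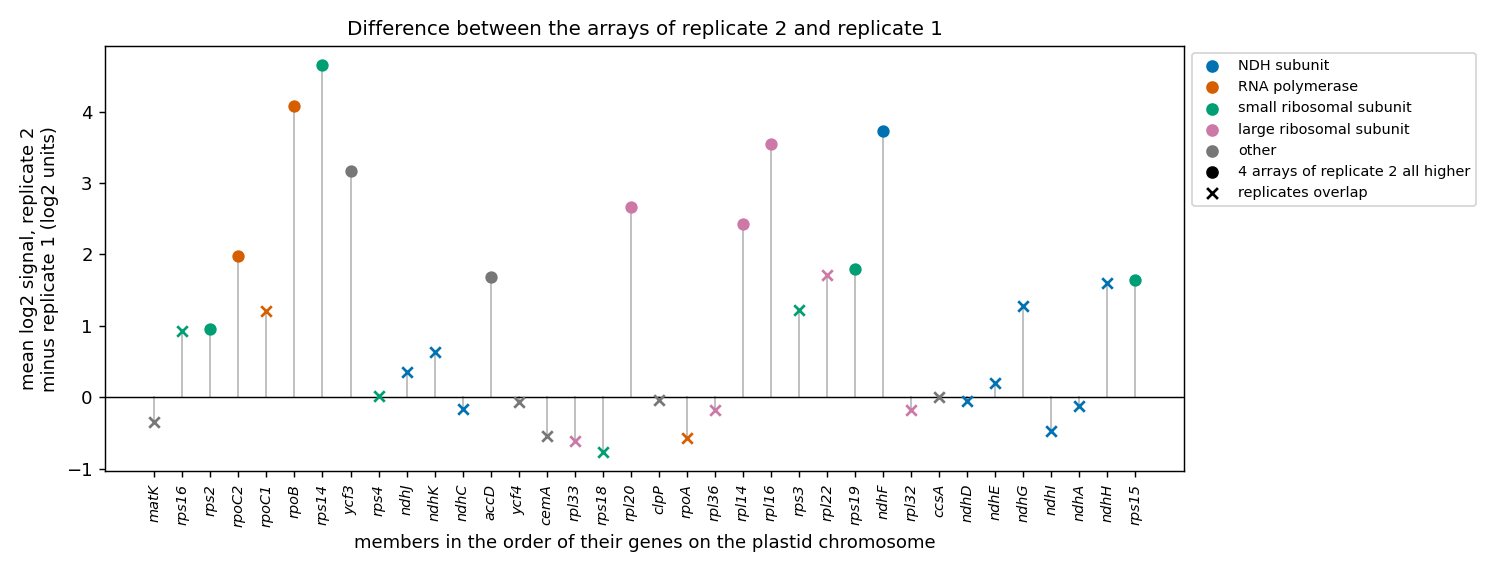
The mean log2 signal of the 4 arrays of replicate 2 minus that of the 4 arrays of replicate 1 is shown for each member in chromosomal order, coloured by role. Filled circles mark the 12 members whose replicates do not overlap, with rps14 highest at 4.65 and rps18 lowest at -0.77.

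Other measures moved with the replicate number. The 5S ribosomal RNA control probe set gave signals of 10.3 to 23.6 on replicate 1, whatever the group, and of 220.4 to 1396 on replicate 2. The geometric mean of 12 poly-A spike-in probe sets was at least 337 on replicate 1 and at most 104 on replicate 2. Their part in the split was not tested.

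The drought differences can be read by the size of that gap, and no test was made of it. The 20 members whose replicates differed by under 1 all had a negative drought difference in dor, with a median of -1.23, and a median of -0.13 in wild type. The 16 members with a larger gap had a median of -0.63 in dor, with 14 negative, and of 0.23 in wild type.

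The 33 plastid photosynthesis probe sets, which share the chromosome and the arrays with the members, had a median of -0.59 in dor, with 27 negative, and of 0.04 in wild type, with 14 negative. Between the genotypes under drought their median was -0.48, and within replicates 1 and 2 it was -0.88 and 0.03. Their summed share was 1.33% and 1.93% in dor drought, against 1.67% and 2.37% in dor control, and 1.97% and 1.94% in wild type drought, against 1.75% and 1.94% in wild type control. Their difference of the drought responses, dor minus wild type, was negative for 31, with medians of -0.88 and -0.34 within replicates 1 and 2. The difference between the members and these probe sets was not tested.

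The plastid ribosome and the NDH complex also hold nuclear-encoded proteins, whose genes were read from lists of loci. Of 33 loci for nuclear-encoded plastid ribosomal proteins 9 were matched to a tested probe set. All 9 had negative drought differences, with medians of -2.34 in dor and -1.95 in wild type. The dor median was -1.23 without dor control replicate 1 and -3.20 without dor control replicate 2, so its order against wild type rested on single arrays. The 15 plastid-encoded ribosomal protein genes had medians of -0.85 in dor and -0.10 in wild type. None of the 9 passed the test within a genotype. Over both genotypes 5 of the 9 fell at an adjusted p under 0.05, where 2.97% of the tested probe sets were called lower, and the median was -2.06. With a random block for arrays of 1 condition and replicate number, at an estimated correlation, none of the 9 passed (lowest adjusted p 0.186, AT3G13120).

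The largest of these falls were those of AT1G29070 and AT1G64510. AT1G29070 read 1846 and 1184 in dor drought, against 24259.5 and 3844 in dor control, and 3980.3 and 1931 in wild type drought, against 21628 and 9554 in wild type control. It fell by 2.54 on the log2 scale (SE 0.59, adjusted p 0.0415), and the drought arrays, wild type replicate 1 excepted, lay below all 4 controls. AT1G64510 fell by 2.35 (SE 0.53, adjusted p 0.0380). The other called genes, named after their values were seen, were AT3G13120, AT3G54210 and AT2G43030, with differences of -2.25, -2.06 and -1.97.

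**Figure D5:**
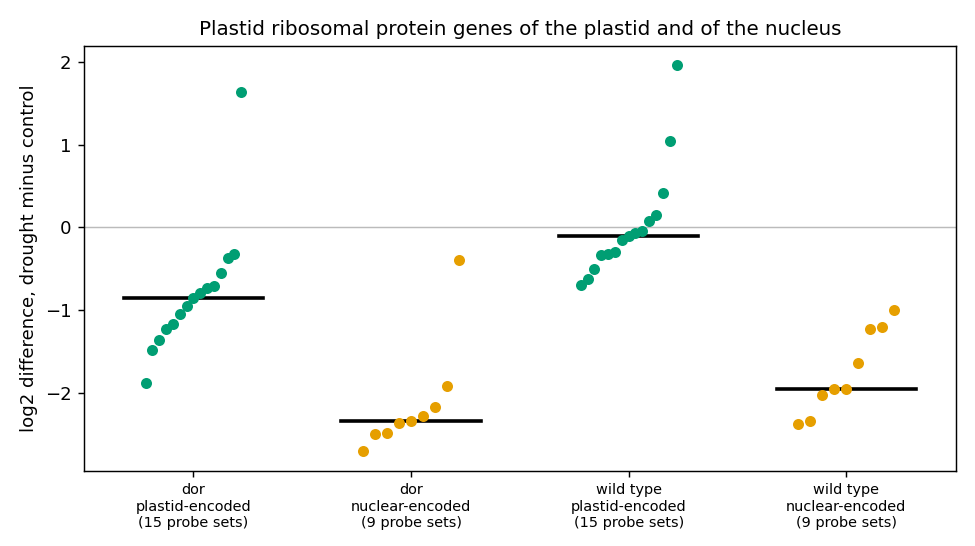
Drought differences of the 15 plastid-encoded and the 9 tested nuclear-encoded plastid ribosomal protein genes are shown in dor and in wild type as points with their medians. The plastid-encoded medians are -0.85 in dor and -0.10 in wild type, and the nuclear-encoded medians are -2.34 and -1.95.

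These nuclear calls depended on few arrays. Besides the random block, the count of 5 was 0 without both controls of replicate 1. It was also 0 without dor drought replicate 1, dor drought replicate 2, wild type drought replicate 1 or wild type control replicate 1, and 1 without dor control replicate 1 or wild type drought replicate 2. Median centring and the extraction wording as a block left 1 call each, and the fit with no intensity trend left 2. On both controls of replicate 1 the 5 prime to 3 prime ratio of the actin control, which falls with RNA degradation or short labelled products, was 0.245 in dor and 0.229 in wild type, against 0.366 to 0.575 on the other 6. The trichome marker TRY also set these 2 arrays apart, as given above. The part of the ratio and of TRY in the calls was not tested.

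Of 25 nuclear loci for NDH subunits and assembly factors 3 were matched to a tested probe set and none was called. All 3 are therefore named here, 2 of them after their values were seen. NdhN and NdhL differed by -3.61 and -3.06 in dor and by -1.04 and -1.36 in wild type, and over both genotypes by -2.32 (adjusted p 0.0862) and -2.21 (adjusted p 0.0701). NdhN read 86.9 and 629.7 in dor drought, against 3627 and 2244 in dor control, and 1055 and 1892 in wild type drought, against 2552 and 3295 in wild type control. Both dor drought arrays were the lowest of the 8. NdhS differed by 0.38 in dor and 0.48 in wild type.

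Among the other nuclear lists, PGRL1B, of the alternative antimycin-sensitive route of cyclic electron flow, rose by 1.65 ± 0.37 under drought over both genotypes (adjusted p 0.0365). It read 2024 and 3805 in dor drought, against 545 and 873 in dor control, and 1729 and 1879 in wild type drought, against 707 and 763 in wild type control, with no overlap between conditions. With the random block its adjusted p was 0.248, and it was called in 7 of the 18 settings. It lost its call without each dor drought array, each wild type drought array, dor control replicate 1 or wild type control replicate 1. The phage-type polymerase gene AT5G15700 differed by 0.79 ± 1.25, the Clp protease partners AT1G09130 by 0.70 ± 0.39 and CLPP4 by -1.05 ± 0.35 (adjusted p 0.101), and the ccsA partners CcdA by -0.05 ± 0.32 and AT1G49380 by -1.46 ± 0.41 (adjusted p 0.0649), all without passing the test. CLPP4 and AT1G49380 were named after their values were seen, and AT1G49380 was called in 2 of the 18 settings. The loci on the lists of polymerase-associated proteins, RNA decay enzymes and accD partners could not be matched to a probe set.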

How the data were processed

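Leaf RNA was measured on ATH1 arrays, 2 for each of 4 groups. The intensity values were made by the authors before they were deposited, with GCOS and MAS5 per the submitters' processing notes, which state no version, as 1 linear signal per probe set. The depth of an array is not a count, so the number of arrays and the signal over background limit the precision. Columns were matched to samples by the sample identifier in the column name, and 0 columns stayed unmapped.

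Signals under 1 were set to 1, which touched 0 member values, and log2 was taken on the authors' scale. A probe set was tested when 2 arrays reached the 40th percentile of their own array, Affymetrix controls left out. Probe sets were named through a platform table and the RefSeq gene table, in which 13436 of 13513 single-gene probe sets matched. The platform table listed no gene for 8730 other probe sets and several genes for 503, and these were matched to no locus. No coordinates or sequences are given, since no build or sequence was named or used here.

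Tests used limma 3.58.1 in R 4.3.3 (two-sided, intensity trend, Benjamini-Hochberg over 15523 probe sets), on 4 group means with 4 residual degrees of freedom, and on an additive model with 5 for drought over both genotypes. The script was tested on simulated data. Summaries and figures used pandas 2.3.3 and matplotlib 3.10.9 in Python 3.11.15. The members, gene lists and the additive comparison were chosen with earlier results of these data known.

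Per-array values are given for the 3 members with the highest mean log2 signal in each role, and for the 2 highest and 2 lowest drought differences over both genotypes. For rpl36, ndhG and any gene said to be so chosen, values were added after they were seen. Other genes were named from locus lists, up to 2 called per list or else that of highest signal, and the mitochondrial loci of 1 list matched no name. Alternatives covered scaling, offset, filter, trend, blocks for replicate number, for the wording of the extraction label (RNAplant reagent named or not) and for arrays sharing condition and number (duplicateCorrelation), the compared arrays alone, and arrays left out in turn. Biological replicates are stated by the labels, but not whether their plants were pooled.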

Additional observations from a re-analysis of the deposited data

Results flagged for a closer look

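The gene rpl36 drew attention because every dor pair and every wild type pair moved in opposite directions under drought. The difference of the drought responses, dor minus wild type, was -2.40 on the log2 scale. It had an adjusted p of 1 (limma), and an unadjusted p of 0.0227. The lowest drought signal in wild type, 1595, lay close to the higher control signal, 1479.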

How the results depend on the processing

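Under the alternatives 111 counts of called members were 0, as with all arrays, and 1 was not. The exception was 1 call for drought over both genotypes without wild type control replicate 2, so that leaving out arrays gave 0 to 1. That call was matK, with a difference of -1.37 and an adjusted p of 0.0496. Among the medians of the members 98 moved by less than the spread between replicates and 20 by more.

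Median centring, which takes away the median log2 signal of all probe sets on each array, gave -0.22 in wild type and -0.62 over both genotypes. Leaving out both controls of replicate 1 gave -0.33 in wild type and -1.04 over both genotypes. This fit held no term for the replicate number and set drought arrays of both replicates against controls of replicate 2 alone. Members read higher on replicate 2 by a median of 0.78. Within replicates 1 and 2 the medians were 0.11 and -0.09 in wild type and -0.56 and -0.40 over both genotypes. The fits without 1 array likewise changed the balance of replicates in its group. Leaving out 1 array gave -1.59 to -0.56 in dor, -0.33 to 0.32 in wild type, -0.30 to 0.63 between the genotypes under control watering and -0.75 to -0.17 over both genotypes. In the fit with a replicate block the median in dor was -1.01, and 0 members were called in every comparison. Deviations of arrays with the same number correlated at 0.40 between dor and wild type under drought and at 0.59 under control watering, and at -0.04 to 0.05 for the other 4 pairs of groups, which cross the conditions. Same-numbered arrays of 1 condition thus deviated together, while the labels do not say what a number shares. With condition and number as a random block, at an estimated correlation of 0.659 in the group means and 0.609 in the additive model, no member was called.

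Some single genes changed sign. When 1 array was left out, accD in dor ranged from -2.04 to 0.030, ndhG in dor from -3.70 to 0.039, ndhH in wild type from -0.062 to 2.00 and AT5G24490 in wild type from -2.13 to 0.13. Without both controls of replicate 1 ndhH in wild type was -0.062 and rps14 over both genotypes was -1.05. All these fits held no term for the replicate number. Within replicates 1 and 2 accD in dor kept its sign, at -0.91 and -1.10, as did ndhH in wild type, at 1.57 and 0.37. The sign of rps14 over both genotypes was also the same, at 2.85 and 0.75, and that of ndhG in dor was not, at -4.43 and 0.76. The causes were not tested. The 8 probe sets of repeated plastid genes, added as an alternative after the data were seen, had medians of -0.15 in dor and 0.47 in wild type. In dor 5 were negative, and both drought arrays lay below both controls for 0 of them, where 22.9% of the tested probe sets did so. Over both genotypes 3 were negative.

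The number of called nuclear ribosomal protein genes, 5 over both genotypes, ranged from 0 to 7 across the alternatives. With 2 arrays a group, depth is the signal over background, and rpoB, ndhF, rps14 and rps16 lay near background on some arrays.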
